A study of Mus musculus with 12 samples.

Results

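Genes that mark natural killer (NK) cells and their killing machinery were read across RNA-seq libraries of common lymphoid progenitors (CLPs), the bone marrow cells from which lymphocytes arise. The 10 genes are Eomes, Tbx21, Ncr1, Klrb1c, Klrk1, Il2rb, Nkg7, Gzma, Gzmb and Prf1. They were found by symbol in a table of 47643 genes, and each symbol matched 1 gene. The rule itself, a list of symbols, holds no measured value, but the genes were chosen with earlier results of these data known. The study asked what loss of the long noncoding RNA Firre, and its return from a transgene, does to gene expression in CLPs. Cells in the Lin- Sca1lo c-Kitlo IL7Rα+ gate were sorted from the bone marrow of male mice aged 27 to 32 weeks, and poly(A)+ RNA of each of 12 mice gave 1 library. Groups were 4 wild-type mice (WT 6, 8, 10 and 11), 4 ∆Firre mice (∆Firre 8, 9, 11 and 12) and 4 Firre rescue mice (Firre rescue 1 to 4), and values are given below in this order of mouse numbers. ∆Firre mice lack the Firre gene body and promoter in every tissue, since a floxed allele had been deleted in the germline with CMV-Cre and backcrossed to C57BL/6J. Firre rescue mice carry the same deletion, a Firre cDNA transgene behind a tet-responsive promoter and the CAG-rtTA3 transactivator, and were fed doxycycline. The deletion is thus shared by ∆Firre and Firre rescue. Transgene, rtTA and the doxycycline diet are named for Firre rescue alone and cannot be told apart.

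NK cells are innate lymphocytes that kill infected or transformed cells without rearranged antigen receptors. The T-box factors EOMES and T-bet (Tbx21) direct their development, and IL-15 sustains them through a receptor that holds the IL-2 receptor β chain (Il2rb). Surface receptors such as NKp46 (Ncr1), NK1.1 (Klrb1c) and NKG2D (Klrk1) set off the release of granules that carry perforin (Prf1) and granzymes (Gzma, Gzmb), and NKG7 is a membrane protein of these granules. In bone marrow, CLPs give rise to B, T and NK cells and to other innate lymphoid cells (ILCs), and NK cells mature in the same tissue. The lineage antibodies listed for the bone marrow stain were directed against CD3, Gr-1, B220, Ter-119 and CD11b, with none against NK1.1.

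Between 10991849 (WT 8) and 32574380 (Firre rescue 3) reads were recovered per library. The 4 Firre rescue libraries held at least 25783144 reads each, and the deepest WT or ∆Firre library held 18176229 (WT 10). Yet 15140 (Firre rescue 3) to 16835 (Firre rescue 2) genes were above 0 in Firre rescue, against 17910 to 19098 in ∆Firre. In WT, 15472 (WT 8) to 19877 (WT 6) genes were above 0. Library numbers of Firre rescue form a range of their own, so genotype and whatever goes with this range cannot be told apart for this group, whereas each of the other 2 ranges holds both WT and ∆Firre mice. Firre stood between 25.2 and 31.6 TPM (transcript abundance per unit length, with a common sum per library) in WT libraries, was listed at 0 in all ∆Firre libraries and stood between 59.9 and 174 TPM in Firre rescue libraries. Genes of the CLP gate and stage (Il7r, Flt3, Kit, Ly6a, Rag1, Rag2, Dntt, Ly6d and Cd27) were read in each library, from Ly6a (24.1 to 53.1 TPM) and Kit (48.2 to 82.9 TPM) over Il7r (353 to 525 TPM) to Dntt (4315 to 6725 TPM). Each library comes from 1 mouse, so the spread between libraries holds both animal and technical variation.

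The members lie on 8 chromosomes, and Klrb1c and Klrk1 both lie in the NK gene complex. Coordinates are from RefSeq on GRCm38, the build to which the reads were mapped (mm10), and all 10 are protein-coding genes. Klrb1c (ENSMUSG00000030325.16) is at chr6:128778485-128788641 and Klrk1 (ENSMUSG00000030149.15) at chr6:129610323-129623903, 821.7 kb apart. Ncr1 (ENSMUSG00000062524.4) is at chr7:4337715-4345184 and Nkg7 (ENSMUSG00000004612.9) on the same chromosome at chr7:43437138-43438246. Eomes (ENSMUSG00000032446.14) is at chr9:118478186-118486132, Tbx21 (ENSMUSG00000001444.2) at chr11:97098007-97115331 and Il2rb (ENSMUSG00000068227.8) at chr15:78479256-78511621. Gzma (ENSMUSG00000023132.7) is at chr13:113093824-113100981, Gzmb (ENSMUSG00000015437.4) at chr14:56258836-56262334 and Prf1 (ENSMUSG00000037202.5) at chr10:61297751-61304684.

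Promoters are shown for 4 of the members that were called lower in Firre rescue than in both other groups (Ncr1, Klrb1c, Klrk1, Gzmb) and for Nkg7, which passed the test in no comparison. Each is the 250 bases 5′ of the transcript start in RefSeq (GRCm38.p6), written 5′ to 3′ on the strand of the gene, and this choice was made after the values were seen. Capitals mark exact matches, on either strand, to 3 strings of letters known from binding sites of factors that act in NK cells: TCACACC (T-box), ACCACA (RUNX) and TTCNNNGAA (STAT).
Ncr1: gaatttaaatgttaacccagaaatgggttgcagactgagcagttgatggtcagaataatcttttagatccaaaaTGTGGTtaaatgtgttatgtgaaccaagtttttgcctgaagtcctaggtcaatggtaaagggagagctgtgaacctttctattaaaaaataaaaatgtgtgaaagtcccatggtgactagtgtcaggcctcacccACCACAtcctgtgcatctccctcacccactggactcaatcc
Klrb1c: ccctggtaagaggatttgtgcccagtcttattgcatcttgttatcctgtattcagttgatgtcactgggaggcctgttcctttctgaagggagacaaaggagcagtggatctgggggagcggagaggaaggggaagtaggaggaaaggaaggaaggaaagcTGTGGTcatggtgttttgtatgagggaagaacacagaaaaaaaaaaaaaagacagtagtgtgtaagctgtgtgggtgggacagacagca
Klrk1: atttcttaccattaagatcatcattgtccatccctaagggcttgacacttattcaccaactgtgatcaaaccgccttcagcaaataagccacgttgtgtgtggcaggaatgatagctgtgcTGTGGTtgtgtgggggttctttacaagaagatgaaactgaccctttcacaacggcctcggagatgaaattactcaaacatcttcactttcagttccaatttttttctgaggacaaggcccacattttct
Gzmb: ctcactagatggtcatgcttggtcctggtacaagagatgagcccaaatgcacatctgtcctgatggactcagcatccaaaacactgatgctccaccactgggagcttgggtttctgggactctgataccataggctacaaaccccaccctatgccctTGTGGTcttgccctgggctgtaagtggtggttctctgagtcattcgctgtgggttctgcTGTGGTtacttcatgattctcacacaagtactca
Nkg7: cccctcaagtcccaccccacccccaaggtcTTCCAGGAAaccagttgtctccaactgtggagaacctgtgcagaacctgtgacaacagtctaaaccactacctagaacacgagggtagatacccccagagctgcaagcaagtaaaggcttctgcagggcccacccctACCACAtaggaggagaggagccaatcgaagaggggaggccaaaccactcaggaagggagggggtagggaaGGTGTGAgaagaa
The first of 2 Ncr1 entries is shown (chr7:4337465-4337714, plus strand). Klrb1c (chr6:128788642-128788891), Klrk1 (chr6:129623865-129624114) and Gzmb (chr14:56262335-56262584) are on the minus strand, the Klrk1 entry being that of a transcript that starts just inside the gene span given above, and Nkg7 (chr7:43436888-43437137) is on the plus strand. The RUNX letters were found in the promoters of 7 of the 9 members that have an entry (Ncr1, Klrb1c, Klrk1, Nkg7, Gzma, Gzmb and Prf1), and in 14.0% of 32851 promoters of this length. T-box and STAT letters were each found in 1 member, Nkg7 for both, and in 3.33% and 7.02% of all promoters. No 2 of the marked matches overlap. Matches are letters in a window, and no binding was measured in these cells.

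Loss of Firre came with no change in the members that passed the test. In ∆Firre against WT, 0 of the 10 members were called by limma at an adjusted p of 0.1 or less, where 0.0207% of the 14479 genes tested were called, 0 had an unadjusted p under 0.05, and limma-voom on the recovered reads also called 0. Log2 fold changes ran from -0.28 (Prf1) to 0.72 (Gzmb), 4 below 0 and 6 above, with a median of 0.08 against -0.06 over all genes tested. The intervals bound what could have been missed. The 95% interval of Nkg7 ran from -0.35 to 0.33 on the log2 scale, whereas that of Tbx21 ran from -1.21 to 1.80. For the receptors they ran from -0.75 to 0.91 (Ncr1), from -0.65 to 0.81 (Klrb1c) and from -0.73 to 0.95 (Klrk1). With the library number range as a term in the fit, 0 members were again called. At the same threshold, the authors' count-based test called more genes in this comparison than the 3 called here. The absence of calls thus holds for the limma fits used here.

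**Figure D1:**
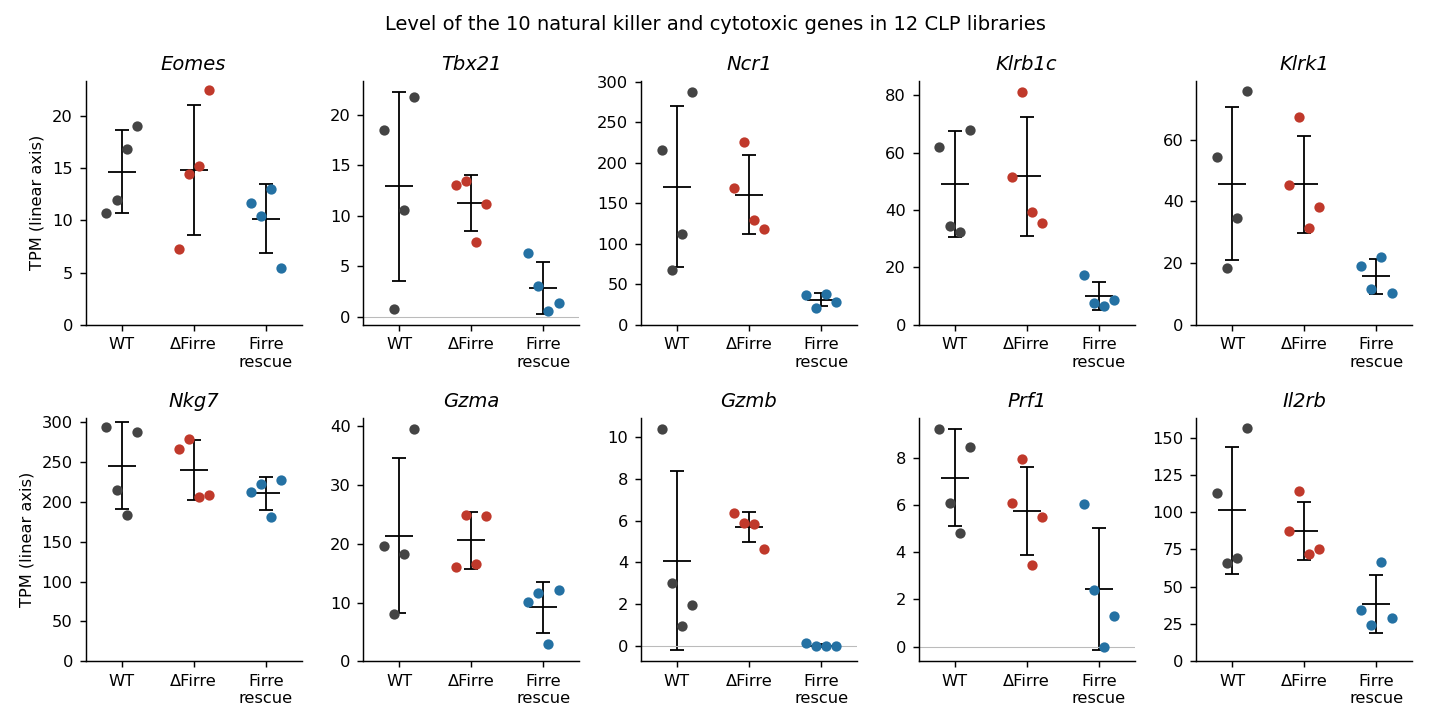
TPM of each member (linear axis) in the 4 WT (grey), 4 ∆Firre (red) and 4 Firre rescue (blue) libraries; points are single mice, and black bars are the mean ± SD. The Ncr1 values of Firre rescue (20.4 to 37.4 TPM) lie under all WT and ∆Firre values, while the Nkg7 values of the 3 groups share 1 range.

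In Firre rescue, most of the members were lower than in ∆Firre. Of the 10, 8 were called lower and 0 higher (Tbx21, Ncr1, Klrb1c, Klrk1, Il2rb, Gzma, Gzmb and Prf1), where 19.3% of all genes tested were called lower and 8.58% higher. The count became 5 when ∆Firre 8, 9 or 12 or Firre rescue 3 was left out, losing Tbx21, Gzma and Prf1. In those fits, 1953 (without ∆Firre 9) to 3306 (without Firre rescue 3) of the 14479 genes tested were called lower. Receptor genes fell about 5-fold (Ncr1 by 5.07-fold and Klrb1c by 4.81-fold) or less (Klrk1 by 2.80-fold), on the scale of TPM + 1. For 7 of the 8, all but Prf1, every Firre rescue library lay under every ∆Firre library, which 15.6% of all genes tested also did. Eomes and Nkg7 did not pass the test, with log2 fold changes of -0.47 and -0.18. The median over the 10 members was -1.38, against -0.16 over all genes tested. Because the RNA is from sorted pools of cells, fewer NK-like cells and less of these RNAs per cell cannot be told apart. Firre rescue against WT shares the Firre rescue libraries with this comparison. There, 6 members were called lower and 0 higher (Ncr1, Klrb1c, Klrk1, Il2rb, Gzmb and Prf1), where 19.4% of all genes were called lower and 4.82% higher. Of the 10, 3 (Ncr1, Klrb1c and Gzmb) had every Firre rescue library under every WT library, as 14.5% of all genes did.

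**Figure D2:**
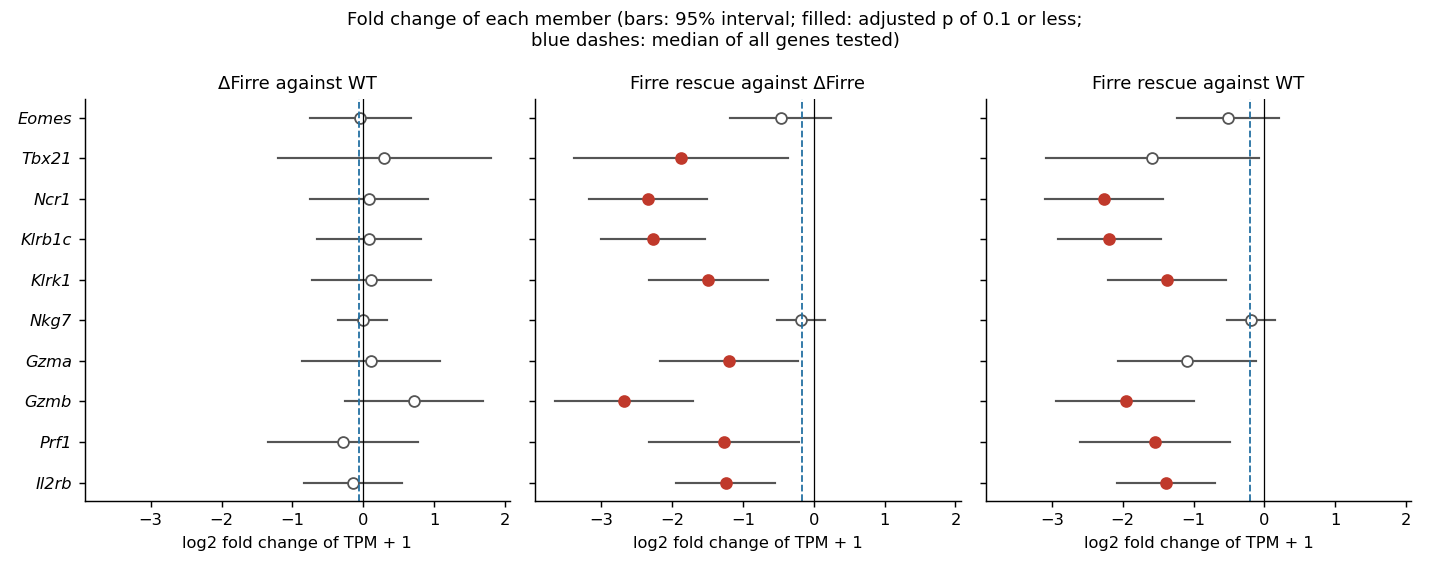
Log2 fold change of TPM + 1 of each member in 3 comparisons, with 95% intervals (grey bars), filled where the adjusted p was 0.1 or less; the blue dashes mark the median of all genes tested. All 10 points are left of 0 in both comparisons with Firre rescue, and Eomes and Nkg7 are open in all 3.

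Of the transcription factors, Tbx21 was called lower in Firre rescue than in ∆Firre, and Eomes passed the test in no comparison. Eomes stood at 10.7, 11.98, 16.9 and 19.1 TPM in WT, at 7.26, 14.4, 15.2 and 22.5 TPM in ∆Firre and at 11.7, 10.4, 13.0 and 5.47 TPM in Firre rescue. The groups overlapped, and the log2 fold change of Firre rescue against ∆Firre was -0.47 ± 0.33 (SE), with an interval from -1.18 to 0.24 and an adjusted p of 0.339. Tbx21, which encodes T-bet, stood at 18.4, 0.80, 10.6 and 21.8 TPM in WT, at 13.0, 13.5, 7.44 and 11.1 TPM in ∆Firre and at 6.33, 3.10, 0.608 and 1.41 TPM in Firre rescue. WT 8 was far below the other 3 WT mice, with 7 reads on Tbx21 against 154 to 249, and lay within the Firre rescue range. Tbx21 was lower in Firre rescue than in ∆Firre by -1.87 ± 0.70 (SE) on the log2 scale (adjusted p = 0.0786). Against WT it missed the threshold at -1.58 (adjusted p = 0.142). It passed without WT 8 at -2.39 (adjusted p = 0.00838) and without Firre rescue 1 at -1.96 (adjusted p = 0.0966). The call against ∆Firre was lost when any one of ∆Firre 8, 9, 11 or 12 or Firre rescue 2, 3 or 4 was left out (adjusted p from 0.0571 to 0.169 over the 8 libraries left out in turn).

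All 3 receptor genes were called lower in Firre rescue than in ∆Firre and than in WT. Ncr1, the activating receptor NKp46, stood at 216, 67.6, 111.5 and 288 TPM in WT, at 168.5, 226, 129.5 and 118 TPM in ∆Firre and at 37.2, 20.4, 37.4 and 27.8 TPM in Firre rescue. No Firre rescue library reached the lowest of the other 8 libraries, WT 8. The log2 fold change was -2.34 ± 0.38 (SE) against ∆Firre (adjusted p = 0.00188) and -2.26 ± 0.38 against WT (adjusted p = 0.00273). Klrb1c, the lectin-like receptor NK1.1 that is stained to identify NK cells in C57BL/6 mice, stood at 62.2, 34.3, 32.2 and 67.8 TPM in WT, at 51.4, 81.2, 39.4 and 35.4 TPM in ∆Firre and at 17.3, 7.70, 6.64 and 8.75 TPM in Firre rescue. Firre rescue 1 was the highest of its group, at 17.3 TPM, and still below all 8 other libraries. The changes were -2.27 ± 0.34 (SE) against ∆Firre (adjusted p = 0.00105) and -2.19 ± 0.34 against WT (adjusted p = 0.00161). Klrk1, the activating receptor NKG2D, stood at 54.3, 18.5, 34.7 and 75.8 TPM in WT, at 45.2, 67.4, 31.4 and 38.2 TPM in ∆Firre and at 19.0, 11.7, 22.04 and 10.1 TPM in Firre rescue. Its Firre rescue libraries were all below ∆Firre but overlapped WT through WT 8, and it fell by 1.49 ± 0.39 (SE) against ∆Firre (adjusted p = 0.0198) and by 1.38 against WT (adjusted p = 0.0301). The latter call was lost after correction for exon GC content (-0.95, adjusted p = 0.110).

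Il2rb, the chain through which IL-2 and IL-15 signal, was one of the more abundant members. It stood at 113, 66.2, 69.2 and 156 TPM in WT, at 87.6, 114, 71.6 and 75.5 TPM in ∆Firre and at 34.1, 24.1, 66.9 and 29.2 TPM in Firre rescue. Firre rescue 3, at 66.9 TPM, was about level with WT 8 and WT 10, and the other 3 Firre rescue mice were below all WT and ∆Firre mice. The log2 fold change was -1.24 ± 0.32 (SE) against ∆Firre (adjusted p = 0.0190) and -1.39 ± 0.32 against WT (adjusted p = 0.0129).

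Of the 4 granule genes, Gzma, Gzmb and Prf1 were called lower in Firre rescue than in ∆Firre, and Nkg7 was not. Nkg7, the most abundant member, stood at 294, 215, 183 and 287 TPM in WT, at 266, 278, 206 and 209 TPM in ∆Firre and at 213, 222, 181 and 227 TPM in Firre rescue. The 3 groups overlapped, the log2 fold change of Firre rescue was -0.18 ± 0.16 (SE) against ∆Firre (adjusted p = 0.457) and -0.19 ± 0.16 against WT (adjusted p = 0.431), and the 95% intervals ended at -0.52 and -0.53. Gzma, a tryptase-like granzyme, stood at 19.7, 8.10, 18.3 and 39.6 TPM in WT, at 16.1, 24.9, 16.6 and 24.8 TPM in ∆Firre and at 10.1, 11.7, 2.91 and 12.1 TPM in Firre rescue. Every Firre rescue value was under every ∆Firre value, and WT 8 lay among the Firre rescue values. Gzma was lower by -1.20 ± 0.45 (SE) against ∆Firre (adjusted p = 0.0787) and missed the threshold against WT at -1.09 (adjusted p = 0.116), which it passed without WT 8 (-1.46, adjusted p = 0.0423). The call against ∆Firre was lost without ∆Firre 8, 9, 11 or 12 or Firre rescue 1 or 3 (adjusted p from 0.0797 to 0.174 over the 8 libraries left out in turn), and without Firre rescue 3 the value shrank to -0.79.

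Gzmb, the granzyme that cleaves caspases and their substrates, came closest to absence. It stood at 10.4, 3.01, 0.963 and 1.99 TPM in WT, at 6.36, 5.88, 5.83 and 4.66 TPM in ∆Firre, at 0.154 TPM in Firre rescue 1 and at 0 in Firre rescue 2, 3 and 4. Behind these values were 106 reads in the 4 WT libraries, 173 in the 4 ∆Firre libraries and 2 in the 4 Firre rescue libraries, both in Firre rescue 1. The Firre rescue libraries were the deepest but held fewer genes above 0 than any ∆Firre library. What this does to low counts was not tested. A count of 0 allows up to 3 reads, or 0.190 TPM in Firre rescue 2 and 0.225 TPM in Firre rescue 4. At equal depth, Gzmb was 154-fold more abundant in ∆Firre than in Firre rescue (exact 95% interval for counting error only, 42.0 to 1283) and 105-fold more abundant in WT (28.3 to 877). WT 6 held 70 of the 106 WT reads, and without it the latter was 47.6-fold (12.2 to 408). WT 6 also had the highest summed TPM of basophil and mast cell markers among WT (8998). ∆Firre 8, highest of its group for Gzmb, was likewise highest for that sum (4305). WT 8, next to WT 6 for Gzmb, had the lowest such sum in WT (1052). A link between these levels was not tested. Without Firre rescue 1, no read was left in that group. The fitted change of -2.68 ± 0.45 (SE) against ∆Firre (adjusted p = 0.00219) depends on the pseudocount and became -5.51 with a pseudocount of 0.1 and -1.08 with 5. Against WT it was -1.96 ± 0.45 (adjusted p = 0.0125). Prf1, the pore-forming protein perforin, stood at 9.22, 6.09, 4.82 and 8.47 TPM in WT, at 6.09, 7.95, 3.45 and 5.48 TPM in ∆Firre and at 6.02, 2.40, 0 and 1.29 TPM in Firre rescue. Firre rescue 1 lay within the range of the other groups, and Firre rescue 3 had 0 reads of 32574380 on the gene, which allows up to 0.138 TPM. Prf1 was lower by -1.27 ± 0.49 (SE) against ∆Firre (adjusted p = 0.0871), a value of -0.78 without Firre rescue 3, and by -1.55 against WT (adjusted p = 0.0477). The call against ∆Firre was lost without ∆Firre 8, 9 or 12 or Firre rescue 2, 3 or 4 (adjusted p from 0.0194 to 0.197 over the 8 libraries left out), and that against WT without WT 6, WT 11 or Firre rescue 4 (from 0.0113 to 0.108). Of 13 other settings, 11 lost the call against ∆Firre, pseudocounts of 0.1 (adjusted p = 0.119) and 5 (0.103) and a fit of the 2 groups alone (0.156) among them, and 5 lost that against WT.

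The order of the members by mean TPM, which is per length, was the same in WT and ∆Firre and another in Firre rescue. In WT, Nkg7 (mean 245 TPM) was followed by Ncr1 (171 TPM), Il2rb (101 TPM), Klrb1c (49.1 TPM), Klrk1 (45.8 TPM), Gzma (21.4 TPM), Eomes (14.7 TPM), Tbx21 (12.9 TPM), Prf1 (7.15 TPM) and Gzmb (4.09 TPM), and every neighbouring pair overlapped between mice. ∆Firre gave the same order. There the range over mice of Ncr1 lay above that of Il2rb, and that of Klrk1 above that of Gzma, while the ranges of all other neighbours overlapped. In Firre rescue, Nkg7 (211 TPM) was above Il2rb (38.6 TPM) with no overlap, and Ncr1 (30.7 TPM), Klrk1 (15.7 TPM), Eomes (10.2 TPM), Klrb1c (10.1 TPM), Gzma (9.19 TPM), Tbx21 (2.86 TPM), Prf1 (2.43 TPM) and Gzmb (0.0386 TPM) followed with overlaps throughout.

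A ratio of 2 genes within a library does not change when the whole library is multiplied by 1 factor, though it can under quantile normalization or a GC correction. The ratio of Ncr1 to Nkg7 was 0.314 to 1.002 in WT, 0.565 to 0.811 in ∆Firre and 0.0921 to 0.207 in Firre rescue. That of Klrb1c to Nkg7 was 0.159 to 0.236 in WT, 0.169 to 0.292 in ∆Firre and 0.0346 to 0.0811 in Firre rescue. Of the 9 ratios to Nkg7, 6 were lower in every Firre rescue library than in every ∆Firre library (Tbx21, Ncr1, Klrb1c, Klrk1, Gzma and Gzmb), and 3 than in every WT library (Ncr1, Klrb1c and Gzmb), as were the ratios of 5.45% and 3.89% of all genes tested other than Nkg7. The summed TPM of the 10 members ran from 431 to 966 in WT, from 526 to 834 in ∆Firre and from 314 to 355 in Firre rescue. Nkg7 made up 29.7% to 49.8% of that sum in WT, 33.4% to 39.9% in ∆Firre and 54.8% to 70.8% in Firre rescue. Nkg7 was chosen as the reference after its values were seen, so the ratios are descriptions, which show unequal change and not which gene stayed at its level.

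Among mice of 1 genotype, several members went up and down together. WT 11 held the highest value of 7 members and WT 6 that of the other 3, while WT 8 was lowest for 5 and WT 10 for 4. ∆Firre 9 was highest for 8 of the 10 members. Firre rescue was mixed, with Firre rescue 3 highest for 4 members and lowest for 5, and Firre rescue 1 highest for 4. In log2(TPM + 1) over the 12 libraries, Pearson's r between members ran from -0.176 (Eomes with Nkg7) to 0.961 (Ncr1 with Klrk1), with a median of 0.636 over 45 pairs. After the group means were removed, Ncr1 and Klrk1 still had an r of 0.943, and the median over pairs was 0.397. For Eomes, r to the other 9 members ran from -0.176 to 0.522. These values share libraries and scaling and are descriptions.

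The genes whose levels followed each member most closely, outside the 10, were partly NK receptors. By the highest Pearson's r over the 12 libraries, Ncr1 was followed by Gimap3 (0.987), Klrb1b (0.975) and Fgl2 (0.974), and Klrb1c by Ugcg (0.976), Cd200r1 (0.974) and Ms4a4b (0.970). Klrk1 was followed by Rasgrp1 (0.965), Gimap3 (0.963) and Klrb1b (0.959), and Il2rb by Tab2, Ifngr1 and Gimap3 (0.971 each). Gimap3, a GTPase of lymphocytes, was thus among the 3 closest genes of 3 members. Tbx21 was followed by Klri2 (0.953), Gpc1 (0.944) and Gm17195 (0.930), and Eomes by Tcf7 (0.905), Fmnl2 (0.887) and Napb (0.875). Prf1 was followed by Klre1 (0.966), Tmx3 (0.963) and Amz2 (0.944), Gzma by the unnamed gene ENSMUSG00000100349.1 (0.941), Mtmr6 (0.938) and Lypd6b (0.934), and Nkg7 by Ube2w (0.901), n-R5s200 (0.897) and Igkv12-47 (0.871). Gzmb was below the mean of 5 TPM that this listing required.

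Of other NK receptors, about as many were called lower in Firre rescue as did not pass. Of 26 such genes, all found in the table, 25 were tested, and in Firre rescue against ∆Firre 13 were lower, 1 was higher and 11 did not pass, with a median log2 fold change of -1.13, where 19.3% of all genes tested were called lower and 8.58% higher. Fcgr3, the Fc receptor CD16 that NK cells share with myeloid cells, fell by 2.93 ± 0.45 (SE; adjusted p = 0.00128), Itga2, the integrin CD49b, by 2.43 ± 0.58 (adjusted p = 0.0133), and Klrb1b, an inhibitory neighbour of Klrb1c, by 2.33 ± 0.43 (adjusted p = 0.00357). The single gene that rose was Slamf6, a receptor of the SLAM family also present on T and B cells, at 0.97 ± 0.26 (adjusted p = 0.0222). In ∆Firre against WT, 0 of the 25 were called, and in Firre rescue against WT 14 were lower and 1 higher, where 19.4% and 4.82% of all genes were. Klr genes are close copies of each other, so reads can be shared between them, and multi-mapping settings are not given in the sources used here.

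Signalling adaptors showed no such shift as a group. Of 14 genes, 13 were found and 12 tested, and 2 were lower and 1 higher in Firre rescue than in ∆Firre, with a median of -0.08 against -0.16 over all genes. Lcp2 (SLP-76) fell by 0.81 ± 0.15 (SE; adjusted p = 0.00376) and Zap70 by 0.79 ± 0.27 (adjusted p = 0.0591), and Plcg2 was higher by 0.50 ± 0.14 (adjusted p = 0.0275). Cytokine receptors and their transducers were lower for 5 and higher for 1 of 13 tested (Stat5b, 0.31, adjusted p = 0.0925), beside 19.3% and 8.58% of all genes. The IL-18 receptor chains Il18r1 and Il18rap fell by 1.21 ± 0.19 (SE; adjusted p = 0.00129) and 0.73 ± 0.13 (adjusted p = 0.00258), and Il15ra, which presents IL-15, by 0.66 ± 0.22 (adjusted p = 0.0583). The ligand Il15 itself, the 1 gene tested of 5 found among NKG2D ligands and IL-15, fell by 1.48 ± 0.40 (adjusted p = 0.0232), from a mean of 16.2 TPM in ∆Firre to 5.41 TPM.

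Transcription factors of NK cells and ILCs other than Eomes and Tbx21 were lower for 8 and higher for 1 (Irf8, 0.36, adjusted p = 0.0911) of 16 tested, with a median of -0.66. Ikzf3 (Aiolos) fell by 1.75 ± 0.31 (SE; adjusted p = 0.00271), Zfp683 (Hobit) by 1.69 ± 0.52 (adjusted p = 0.0399) and Prdm1 (Blimp-1) by 1.57 ± 0.41 (adjusted p = 0.0197). Of 22 other granule and exocytosis genes, 15 were tested, 3 were lower, 0 were higher and 12 did not pass, with a median of -0.38, so that the share called lower was about that of all genes tested (19.3%). The 3 were Serpinb6b, a granzyme inhibitor (-0.84 ± 0.30 (SE), adjusted p = 0.0695), the protease Ctsw (-0.52 ± 0.19, adjusted p = 0.0785) and the death ligand Tnfsf10 (-0.38 ± 0.13, adjusted p = 0.0577, with 0.01 after correction for GC content). Gzmd, Gzme, Gzmf, Gzmg and Gzmn, granzymes of one cluster with Gzmb, were listed at 0 in all 12 libraries. NK cytokines, chemokines and homing receptors were lower for 7 of 11 tested and higher for 0, with a median of -1.16. Ccl3 fell by 3.25 ± 0.38 (SE; adjusted p = 0.000208), from a mean of 152 TPM in ∆Firre to 15.8 TPM. The homing receptor Cxcr6 fell by 2.04 ± 0.46 (adjusted p = 0.0108), and Ifng, the signature NK cytokine, by 1.97 ± 0.52 (adjusted p = 0.0207) from a mean of only 3.57 TPM.

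Over these 7 lists, 93 genes that are not members were tested, and 39 (41.9%) were lower and 4 higher in Firre rescue than in ∆Firre, where 19.3% of all genes tested were lower and 8.58% higher. After the GC correction 26 were lower and 9 higher, where 5.80% and 13.7% of all genes were, and after median-ratio rescaling 28 and 9, where 12.9% and 13.1% were. Against WT, 39 were lower and 3 higher, where 19.4% and 4.82% of all genes were, and after the GC correction 22 and 6, where 5.04% and 10.2% were. In ∆Firre against WT, 0 of the 93 were called. Among the genes named against ∆Firre, Fcgr3, Itga2, Klrb1b, Slamf6, Plcg2, Il18r1, Il15, Ikzf3, Prdm1, Ccl3, Cxcr6 and Ifng kept their calls under every other setting in which they were tested and with each library left out, and Lcp2 and Il18rap lost theirs in 1 setting, the GC correction with a block of mouse number. Calls were lost under 5 (Zap70), 6 (Il15ra), 6 (Stat5b), 6 (Irf8), 2 (Zfp683), 8 (Serpinb6b) and 7 (Ctsw) of 13 other settings, and each of these 7 also lost its call with at least 1 library left out. Tnfsf10 lost its call under 4 settings and changed sign under 2, and lost it in 3 of 8 fits with a library left out. With the GC correction, Il15ra stood at -0.35 (adjusted p = 0.335) and Serpinb6b at -0.46 (adjusted p = 0.342). Slamf6, Stat5b and Irf8 are named because few genes rose, a choice made after their values were seen. Against WT, the same naming rule gave some further genes. Among receptors, Klra4 was lower at -2.16 (adjusted p = 0.0373), among adaptors Cd247 was higher at 0.65 (adjusted p = 0.0733), and among cytokine receptors Il2rg, the common γ chain, fell by 0.55 (adjusted p = 0.0122). Rora, a factor of group 2 ILCs, fell by 1.10 (adjusted p = 0.00865). The granule genes Fasl and Gzmm were lower at -1.61 (adjusted p = 0.0473) and -1.41 (adjusted p = 0.0434). Of these, Rora alone kept its call under every setting and with each library left out, whereas Il2rg lost it with the GC correction (-0.29, adjusted p = 0.167), Klra4 and Fasl also with a library left out, Gzmm with quantile normalization (-0.88, adjusted p = 0.215) and Cd247 in 5 of 8 fits with a library left out.

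**Figure D3:**
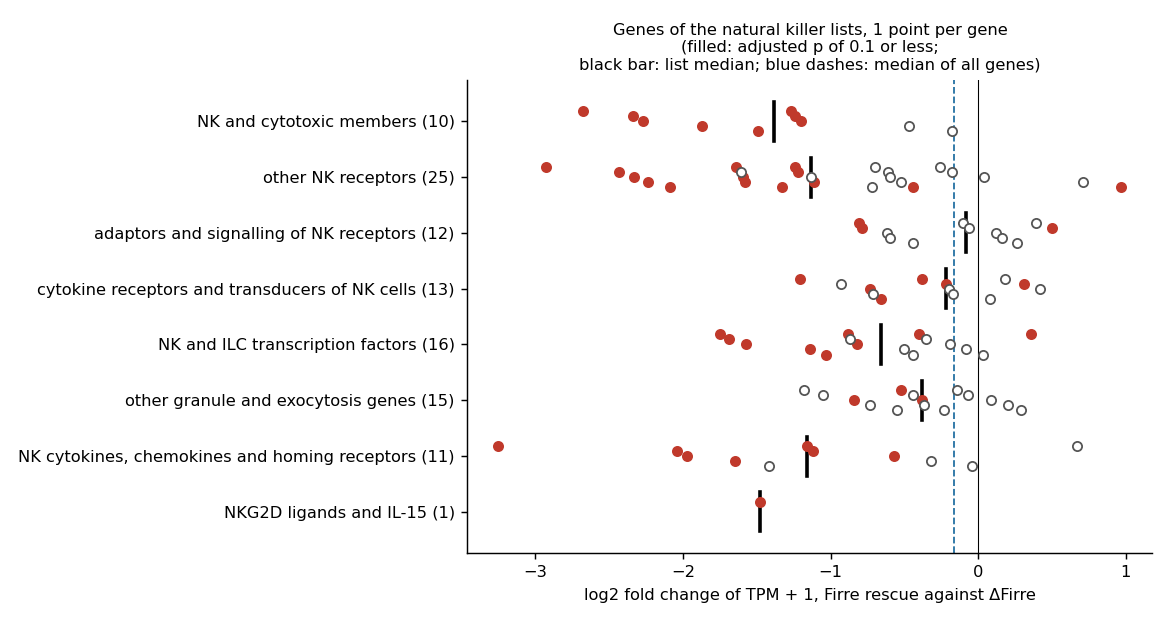
Log2 fold change of TPM + 1 in Firre rescue against ∆Firre for every gene tested of 8 lists (number of genes in brackets), filled where the adjusted p was 0.1 or less; black bars are list medians, and blue dashes mark the median of all genes tested. The medians of the members (-1.38), other receptors (-1.13) and cytokines (-1.16) lie left of that of the adaptors (-0.08).

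Markers of other cells also differed between Firre rescue and ∆Firre, where 19.3% of all genes tested were called lower and 8.58% higher. Basophil and mast cell markers fell most: all 6 tested of 8 were lower in Firre rescue than in ∆Firre, with a median of -6.80, and their summed TPM ran from 1052 to 8998 in WT, from 2920 to 4305 in ∆Firre and from 63.6 to 142 in Firre rescue. Ms4a2, a chain of the IgE receptor, was at or below 0.128 TPM in all Firre rescue libraries, and the mast cell proteases Cma1 and Mcpt4 were at 0 in all 12. Of B cell markers, 7 of 8 were higher in Firre rescue (a summed TPM of 215 to 420 in WT, 283 to 374 in ∆Firre and 835 to 1340 in Firre rescue), with Ms4a1, a gene of mature B cells, lower. Group 2 ILC markers were lower for 4 of 4 tested of 7 (summed TPM from 33.9 to 63.4, against 84.9 to 129 in the other 2 groups), while Il13 and Il5 did not exceed 0.175 and 1.63 TPM in any library and Areg was at 0. Of T cell markers, 3 of 6 tested of 10 were lower, namely Trac and both T cell receptor β constant genes, of which Trbc1 ran from 102.9 to 329.7 TPM and Trac reached 9.43 TPM. The summed TPM of the T cell list was 255 to 405 in WT, 246 to 414 in ∆Firre and 136.5 to 222 in Firre rescue. The CD3 chains Cd3e, Cd3d and Cd3g reached at most 0.732, 2.97 and 11.2 TPM. Neutrophil and monocyte markers were lower for 3 of 9 tested of 10 (Ctsg, -1.55; Itgam, -1.10; Mpo, -0.56), and their summed TPM overlapped between groups (560.1 to 1329 in WT, 373 to 1596 in ∆Firre and 227 to 1412 in Firre rescue). Of 5 plasmacytoid dendritic cell markers tested, 2 were higher (Cox6a2 and Bst2) and 2 lower (Ccr9 and Tcf4), and of 4 erythroid markers 0 were called. Of the 9 CLP genes, Ly6d and Rag1 were higher and Kit was lower in Firre rescue, and the other 6 did not pass. The part of these other cells in the levels of the members and of the other NK lists, Itga2 among them, was not tested.

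**Figure D4:**
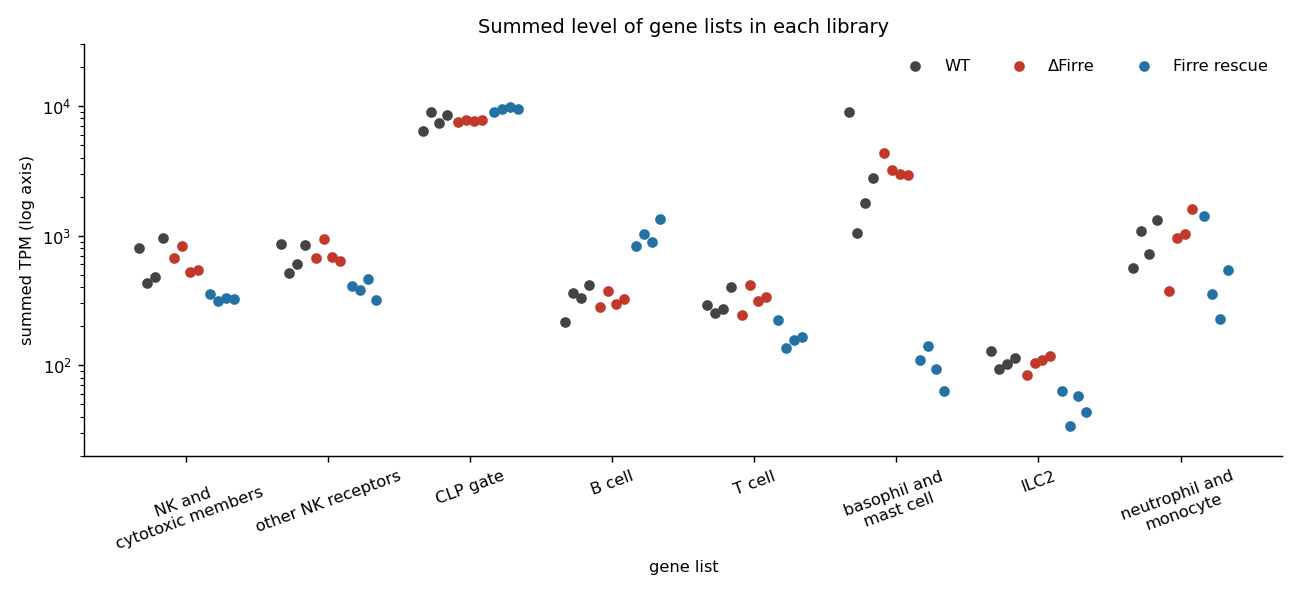
Summed TPM (log axis) of the members, of other NK receptors and of 6 marker lists in each WT (grey), ∆Firre (red) and Firre rescue (blue) library, 1 point per mouse. In Firre rescue the members (314 to 355 TPM), other NK receptors (320 to 464 TPM) and the basophil and mast cell list (63.6 to 142 TPM) are below all other libraries. So are the T cell list (136.5 to 222 TPM) and the group 2 ILC list (33.9 to 63.4 TPM). The B cell list (835 to 1340 TPM) is above all other libraries, and narrowly so is the CLP list (9022 to 9883 TPM). The neutrophil and monocyte list overlaps between groups.

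Scaling shifted the whole table of Firre rescue. With TPM as deposited, the median change against ∆Firre of all genes tested was -0.16 on the log2 scale, and it moved up by 0.11 with median-ratio rescaling, by 0.18 with quantile normalization and, over the 13086 genes with a GC value, by 0.22 from -0.14 after correction for exon GC content. Of genes called in Firre rescue against ∆Firre, 30.7% were higher with TPM as deposited, 50.5% after median-ratio rescaling, 53.6% after quantile normalization and 70.3% after the GC correction (from 32.4% over the genes with a GC value), and against WT these shares were 19.9%, 51.2%, 49.96% and 66.9% (from 20.7%). The fitted change of every one of the 10 members stayed below 0 in Firre rescue against ∆Firre and against WT under all of these. For Nkg7 against WT it ran from -0.19 to -0.0 over the 13 other settings, and thus reached about 0. After the GC correction, 6 members, without Gzma (-0.83) and Prf1 (-1.33), were called lower than in ∆Firre, where 5.80% of 13086 genes were, and 5 were called lower than in WT, where 5.04% were. After median-ratio rescaling these were 5 members, where 12.9% of all genes were called lower, and 6 members, where 8.59% were. Ncr1, Klrb1c, Il2rb and Gzmb were called in both comparisons, and Klrk1 in that against ∆Firre, under every setting in which they were tested.

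**Figure D5:**
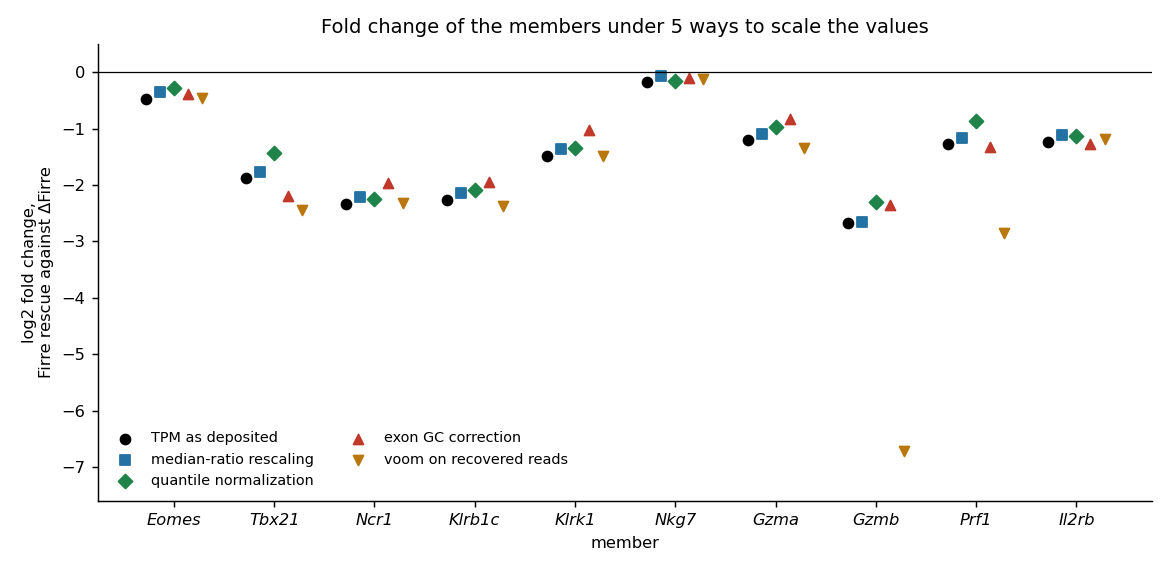
Log2 fold change of each member in Firre rescue against ∆Firre under 5 ways to scale or model the values, 1 symbol per way. Ncr1 keeps values between -2.34 and -1.97, Nkg7 stays between -0.18 and -0.06, and the spread is widest for Gzmb (-6.71 to -2.30) and Prf1 (-2.85 to -0.87), which had the fewest reads.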

How the data were processed

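The authors made paired-end poly(A)+ RNA-seq libraries from CLPs of 4 male mice per genotype (WT, ∆Firre, Firre rescue). Per the labels and methods, the authors trimmed reads with cutadapt, mapped them to mm10 with TopHat2 2.1.1 and counted them per Gencode gene with featureCounts. The deposited values are TPM, for which the authors divided reads by gene length and scaled each library to 1000000. Strand and multi-mapping settings are not given in the sources used here.

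The 14479 genes whose TPM averaged 1 or more were set to log2(TPM + 1) and fitted in 1 model with limma 3.58.1 in R 4.3.3 (lmFit, eBayes with trend). Tests were two-sided with Benjamini-Hochberg adjustment over all genes, and an adjusted p up to 0.1 counted as a call. A count model was not used as the main test because the unit is TPM. Whole reads were recovered from the spacing of TPM (99.995% of values above 0 within 0.02 of a whole number) and gave depths from 10991849 to 32574380 reads. Intervals and floors on reads (3 reads) cover counting error only. Where a symbol was out of date, it was updated from RefSeq.

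Members and gene lists were chosen with earlier results of these data known. All members were named, and of each other list at most the 3 called genes with the largest change. For each member that averaged 5 TPM or more, the 3 genes of highest Pearson's r were listed. Alternatives were pseudocounts of 0.1 and 5, other filters, median-ratio and quantile scaling, no trend, the 2 groups compared alone, an adjusted p of 0.05, blocks of mouse number and of library number range, limma-voom on recovered reads, and each library left out. Chosen after seeing the data were a spline correction for exon GC content (4 degrees of freedom, with GC content from a Gencode release before the one used, matched on gene ID for 90.4% of genes tested) and the same with the block. The fits were tested on simulated data. Python 3.11.15, numpy 2.4.6, pandas 2.3.3 and matplotlib 3.10.9 were used. The authors' own test was not run again, and flow cytometry was not analysed here.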

Additional observations from a re-analysis of the deposited data

Results flagged for a closer look

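Of 30 sets of 4 libraries (10 members in 3 groups) 2 held a library whose distance to its nearest neighbour, divided by the range of its group, was above Dixon's 95% critical value for 4 samples, where chance alone gives about 1.5. Gzma in Firre rescue 3 stood at 1.97 on the log2(TPM + 1) scale, against 3.47 to 3.71 in the other 3 Firre rescue mice. Gzmb in Firre rescue 1 stood at 0.21, against 0 in the other 3, and this value rests on 2 reads. With the other 3 tied at 0, any value above 0 would be flagged. This flag can thus not be set against the number that chance gives.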

How the results depend on the processing

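In ∆Firre against WT, 0 members were called under every setting run. Fitted values near 0 changed sign there. Eomes was 0.03 with the GC correction, with quantile normalization and with the GC correction and the replicate block, 0.01 with limma-voom and 0.02 with median-ratio rescaling. Nkg7 was 0.07 with the GC correction and with that and the block, 0.05 with limma-voom, 0.02 with quantile normalization and 0.06 with median-ratio rescaling. With a library left out, reversals gave ranges of -0.26 to 0.24 (Eomes), -0.52 to 0.70 (Tbx21), -0.29 to 0.40 (Ncr1), -0.16 to 0.26 (Klrb1c), -0.25 to 0.41 (Klrk1), -0.14 to 0.08 (Nkg7), -0.26 to 0.46 (Gzma) and -0.31 to 0.10 (Il2rb). In Firre rescue against ∆Firre, the 8 members called became 5 at an adjusted p of 0.05, without a filter and without a trend. They also became 5 with quantile normalization and with median-ratio rescaling. Each of these lost Tbx21, Gzma and Prf1. Of 14479 genes, 1796 were called lower at an adjusted p of 0.05, 2617 without a trend, 1732 with quantile normalization and 1862 with rescaling. Without a filter, 2304 of 25277 were. With a library left out, 5 to 7 members were called, where 1953 to 3306 of 14479 genes were called lower. Against WT, 6 became 4 to 6 under the other settings and 5 to 8 with a library left out. Genes called lower there ran from 395 of 13086 (GC correction and block) to 2871 of 14479 (pseudocount of 0.1). With a library left out they ran from 2141 to 3619 of 14479. The causes were not tested. Tnfsf10 against ∆Firre went to 0.01 with the GC correction and 0.06 with the block added. Of the 93 other genes of the NK lists, those called lower than in ∆Firre went from 39 to 26 with the GC correction and with quantile normalization, 23 with the GC correction and block, and 27 with the block or at an adjusted p of 0.05; against WT, from 39 to 22 with the GC correction or quantile normalization and 26 with median-ratio rescaling, and 15 with the GC correction and block. Mouse numbers 8 and 11 are shared by WT and ∆Firre. Deviations from the group means of same-numbered mice had correlations of -0.0328 and -0.0411 over genes. Differently numbered mice gave -0.077 to 0.177. With 4 mice per group, such values cannot show whether the samples were paired. With mouse number as a block, 0 members were called in ∆Firre against WT, 7 in Firre rescue against ∆Firre and 5 against WT. Of 14479 genes, 1865 and 1676 were called lower in the latter comparisons. With the GC correction added, 0, 6 and 4 members were called, where 523 and 395 of 13086 genes were called lower in the latter comparisons. Over all genes, calls in Firre rescue against ∆Firre went from 4043 to 2682 at an adjusted p of 0.05, 2553 with the GC correction and 1878 with the block added. Against WT they went from 3512 to 2113 with the block, 1996 with the GC correction, 1282 with both and 2263 with the 2 groups alone. The GC correction ran over 13086 of the 14479 genes tested, so its counts over all genes also rest on fewer genes. In ∆Firre against WT, 3 genes were called, and 0 with limma-voom to 6 without a filter. Reads per library were few for Gzmb (0 to 70), Prf1 (0 to 113), Gzma (25 to 160) and Tbx21 (7 to 249). The library number range and genotype cannot be told apart for Firre rescue.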
